A study of Mus musculus with 15 samples.

Results

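The primary, or azurophil, granule genes were followed through 3 groups of mouse bone marrow. The members were chosen by name: the rows of the normalized count table for Mpo, Elane, Prtn3, Ctsg, Ms4a3 and Fcnb, which are 6 of its 38315 genes. All 6 were found and all 6 passed the filter on low values. Total RNA was sequenced from 15 samples. The AML group held 7 marrows with acute myeloid leukaemia (AML) from mice of the genotype NUP98-NSD1/FLT3-ITD, a fusion of a nucleoporin gene with a histone methyltransferase gene together with an internal tandem duplication in the receptor tyrosine kinase FLT3. Normal marrow of wild-type mice made up the other groups, with 4 samples of whole marrow and 4 of lineage-negative marrow, which is depleted of cells that carry surface antigens of mature blood lineages. The labels name no treatment, age, strain or transgene promoter, and do not say whether marrow of several animals was pooled, so the p-values measure the spread between these samples.

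Neutrophils make their granules in waves. Promyelocytes transcribe the genes of the primary granules, which hold myeloperoxidase and a set of serine proteases that kill microbes; later stages shut these genes off and transcribe the genes of secondary and then tertiary granules. In normal marrow the transcripts of primary granule proteins therefore belong to a short immature window, although the proteins stay in the mature cell. The regulators best known at these promoters are the C/EBP, PU.1, MYB, RUNX1 and GFI1 factors.

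Mpo encodes myeloperoxidase, the heme enzyme that makes hypochlorous acid. Elane, Prtn3 and Ctsg encode neutrophil elastase, proteinase 3 and cathepsin G, related serine proteases. Ms4a3 encodes a membrane-spanning protein of granulocyte-monocyte progenitors, and Fcnb encodes ficolin B, a carbohydrate-binding lectin of the complement system. In GRCm38, with gene positions from GENCODE M21, Mpo (ENSMUSG00000009350) lies on chromosome 11 from 87793581 to 87804413, on the plus strand. Prtn3 (ENSMUSG00000057729) spans 79874476 to 79883174 and Elane (ENSMUSG00000020125) spans 79886247 to 79888215 on chromosome 10, both on the plus strand and with 3072 bases between them. Ctsg (ENSMUSG00000040314) lies on chromosome 14 from 56099881 to 56102574, Ms4a3 (ENSMUSG00000024681) on chromosome 19 from 11629496 to 11640851 and Fcnb (ENSMUSG00000026835) on chromosome 2 from 28076378 to 28084885, all on the minus strand. Values count reads over whole genes, so no exon or isoform is separated.

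The promoters are shown because, under the deposited scaling, 5 members were higher in lineage-negative than in whole marrow and Fcnb was lower. For Ms4a3, 1 of these 5, the difference was not called. All 6 members matched a RefSeq window (GRCm38.p6) of 250 bases before the transcription start. The lines give, 5′ to 3′ on the strand of the gene, the longest stretch of that window with no annotated GENCODE exon, which for Mpo is 47 bases because its RefSeq start lies within an exon of another annotated transcript. Their positions are chr11:87793534-87793580 for Mpo, chr10:79886062-79886246 for Elane, chr10:79879417-79879613 for Prtn3, chr14:56102575-56102824 for Ctsg and chr2:28084886-28085128 for Fcnb. Capitals mark matches, on either strand, to the letters GAGGAA (the core of ETS factors such as PU.1), TTGCNNA (C/EBP), AACNG (MYB), TGTGGT (RUNX) or AATCAC (GFI1), and where capitals of different motifs overlap they run together. A match cut by the end of a stretch is shown in part.
Mpo: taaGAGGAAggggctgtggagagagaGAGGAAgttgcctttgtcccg
Elane: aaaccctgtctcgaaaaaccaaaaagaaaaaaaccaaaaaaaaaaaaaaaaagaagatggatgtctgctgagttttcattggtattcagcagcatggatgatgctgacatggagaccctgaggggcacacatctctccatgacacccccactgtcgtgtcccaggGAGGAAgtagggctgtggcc
Prtn3: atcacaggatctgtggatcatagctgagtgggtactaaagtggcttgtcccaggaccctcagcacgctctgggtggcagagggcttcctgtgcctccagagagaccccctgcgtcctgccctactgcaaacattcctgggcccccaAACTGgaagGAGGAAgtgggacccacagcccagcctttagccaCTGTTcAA
Ctsg: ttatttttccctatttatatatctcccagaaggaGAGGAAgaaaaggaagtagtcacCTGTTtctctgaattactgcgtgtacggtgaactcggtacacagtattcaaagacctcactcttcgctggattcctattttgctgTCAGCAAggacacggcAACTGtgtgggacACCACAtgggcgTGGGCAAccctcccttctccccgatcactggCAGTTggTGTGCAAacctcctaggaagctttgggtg
Fcnb: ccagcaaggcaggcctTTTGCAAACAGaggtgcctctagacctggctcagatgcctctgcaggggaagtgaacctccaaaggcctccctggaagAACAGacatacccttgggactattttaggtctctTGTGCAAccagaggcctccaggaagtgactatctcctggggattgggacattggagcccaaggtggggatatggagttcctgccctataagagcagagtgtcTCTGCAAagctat

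The ETS letters were found in the full windows of Mpo (2 matches), Elane, Prtn3 and Ctsg (1 match each), and in 23.3% of all 32851 promoter windows. They were not in the windows of Ms4a3 and Fcnb. The C/EBP letters occurred 3 times in the Ctsg window and 4 times in the Fcnb window, with a pair of overlapping matches in Fcnb, and in 32.8% of all windows. The MYB letters were in 5 of 6 members but also in 74.2% of all windows. The RUNX letters, in 14.0% of all windows, were found in Ctsg alone among the members, and the GFI1 letters, in 9.14%, in none. The Ms4a3 window held no match to any of the 5 motifs. These matches describe letters and not binding.

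Estimated depth was 20.3 to 35.1 M reads in AML, 11.4 to 17.2 M reads in whole marrow and 20.3 to 28.1 M reads in lineage-negative marrow. Every value is a normalized count: estimated reads divided by 1 size factor per library, as deposited by the authors. A floor of 3 reads corresponded to 1.96 to 4.09 normalized counts, and the lowest member value was 37.9. The deposited scaling set whole marrow lower than the other groups: over the 18941 genes tested, median log2 differences came to 0.67 in AML against whole marrow, 0.59 in lineage-negative against whole marrow and 0.02 in AML against lineage-negative marrow. With the trimmed-mean (TMM) scaling of edgeR, rewritten in R, these medians were 0.01, −0.10 and 0.05, so differences from whole marrow depend on the scaling, and those of the members are given under both. Whole marrow listed 7.12% to 15.7% of genes at 0, lineage-negative marrow 35.7% to 41.0% and AML 23.6% to 41.4%. Among AML libraries, replicates 5 and 6 listed the fewest, 29.1% and 23.6%.

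Markers bore out the depletion named by the labels. The summed level of 8 lineage antigen genes was 15539 to 27768 normalized counts in whole marrow and 1008 to 1944 in lineage-negative marrow, and that of 6 mature neutrophil genes was 237625 to 717686 against at most 7894. In AML these sums were 11332 to 32728 and 190548 to 819767, so RNA of mature neutrophils was abundant there. In bulk RNA, fewer cells of a type and less RNA per cell cannot be told apart.

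Mpo was the most abundant member in every library. It had 12232, 24749, 25839 and 21256 normalized counts in the 4 whole marrows, 119961, 124161, 88137 and 79425 in the 4 lineage-negative marrows, and 8584, 31826 and 56934 as the lowest, median and highest of the 7 AML marrows. All lineage-negative libraries were high, and the AML libraries reached both below and above the whole marrow libraries. Mpo made up 0.433% to 0.609% of all normalized counts in lineage-negative marrow, 0.119% to 0.144% in whole marrow and 0.0330% to 0.234% in AML.

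Elane, the elastase gene, had 2082, 6437, 6009 and 4678 normalized counts in whole marrow and 18461, 11972, 9096 and 7225 in lineage-negative marrow. In AML its lowest, median and highest values were 1717, 7104 and 11002. Its lineage-negative libraries were all above the whole marrow libraries, and AML overlapped both.

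Prtn3, its neighbour on chromosome 10, had 2074, 5634, 6216 and 4135 normalized counts in whole marrow and 18437, 15776, 10371 and 10380 in lineage-negative marrow. AML ran from 3514 through a median of 9916 to 12658. The highest 4 of 7 AML libraries stood above all whole marrow libraries, and 4 of 7 lay below all lineage-negative libraries.

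Ctsg, for cathepsin G, had 2276, 4628, 4846 and 3141 normalized counts in whole marrow and 20979, 15780, 12593 and 12881 in lineage-negative marrow. AML ran from 1896 through 6665 to 9141, below every lineage-negative library. Against whole marrow AML overlapped, with 4 of 7 libraries above and 1 of 7 below all whole marrow libraries.

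Ms4a3 had the smallest difference between the normal groups. It had 753, 2212, 2250 and 1457 normalized counts in whole marrow and 2275, 3368, 2691 and 2842 in lineage-negative marrow. In AML it ran from 495 through 1649 to 3793, the largest ratio of highest to lowest among the 6 members.

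Fcnb went the other way. It had 1497, 2973, 2148 and 1823 normalized counts in whole marrow, 949, 1973 and 2343 as the lowest, median and highest in AML, and 138, 37.9, 98.7 and 42.4 in lineage-negative marrow. Whole marrow and AML overlapped, and every lineage-negative library was far below both. The depleted marrow, which held the most Mpo, thus held the least Fcnb. Fcnb did not share the pattern of the other members between the normal groups, and the stage of the cells that held it was not measured.

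**Figure D1:**
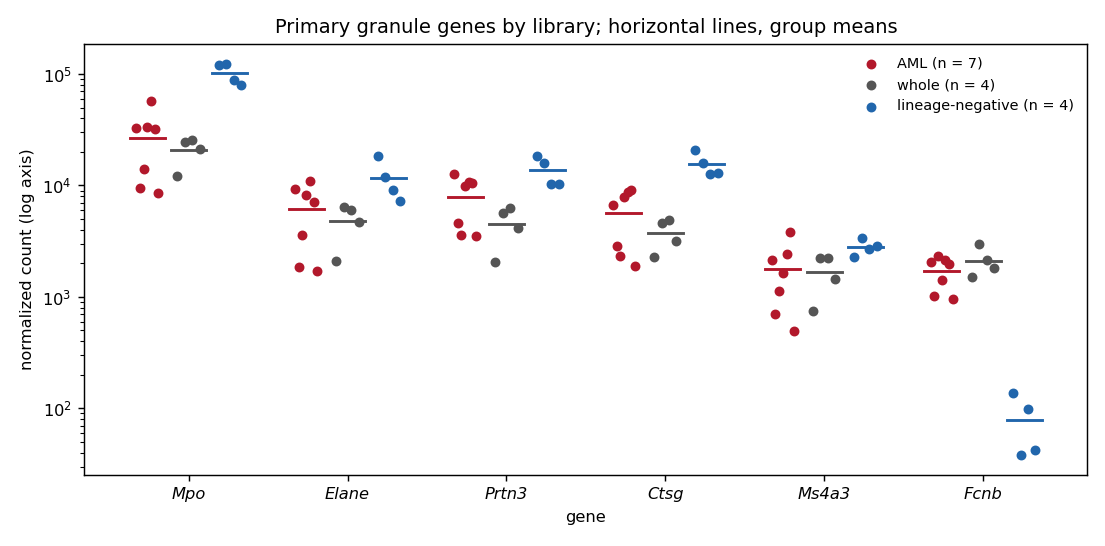
Normalized counts (log axis) of the 6 primary granule genes in each library; points are single libraries of AML (n = 7), whole marrow (n = 4) and lineage-negative marrow (n = 4), and lines are group means. Lineage-negative libraries are above whole marrow for 5 genes and below it for Fcnb, where they lie between 37.9 and 138.

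Per kilobase of exonic length, the scale on which genes can be compared, Mpo was highest in all 15 libraries. It averaged 30059 ± 6557 normalized counts per kilobase (SD, n = 4) in lineage-negative samples, 6139 ± 1804 (SD, n = 4) in whole marrow samples and 7826 ± 5069 (SD, n = 7) in AML samples. In lineage-negative marrow the order from the highest was Mpo, Ctsg, Elane, Prtn3, Ms4a3 and Fcnb in each of the 4 libraries, with Ctsg at 15061 ± 3765 and Elane at 11879 ± 4999 per kilobase, which overlap. In AML the means were 6214 ± 3776 for Elane, 5471 ± 3075 for Ctsg and 4584 ± 2247 for Prtn3, whose order changed from library to library. Fcnb was at 1271 ± 423 and Ms4a3 at 936 ± 608 per kilobase in AML, which overlap too. The exonic length of Prtn3 includes exons upstream of its RefSeq start, which lowers its level on this scale.

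No primary granule gene was called different between AML and whole marrow. A gene was called in the limma fit over all genes at a Benjamini-Hochberg adjusted p under 0.05 and at least a 2-fold difference, and 38.5% of all genes passed, 27.3% higher and 11.3% lower in AML. The groups overlapped for all 6 members, while 43.7% of all genes had groups without overlap, 35.8% higher and 7.88% lower. Log2 differences were 0.75 (SE 0.38) for Prtn3, 0.41 (SE 0.40) for Ctsg, 0.16 (SE 0.47) for Elane, 0.11 (SE 0.44) for Mpo, −0.09 (SE 0.42) for Ms4a3 and −0.34 (SE 0.33) for Fcnb. The smallest adjusted p in limma was 0.0889, for Prtn3, and the others ran from 0.370 to 0.871. After TMM scaling, with 20.8% of all genes called, 4.92% higher and 15.8% lower, the differences were 0.07 for Prtn3, −0.27 for Ctsg, −0.52 for Elane, −0.57 for Mpo, −0.77 for Ms4a3 and −1.02 for Fcnb. Fcnb, at −1.02 (SE 0.33, adjusted p in limma 0.0229), was then called lower in AML, while the signs of Mpo, Elane and Ctsg turned. A p above the threshold does not show the levels to be equal.

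Against lineage-negative marrow, AML had less Mpo and Ctsg and more Fcnb. Of the 6 genes 3 were called, as were 30.3% of all genes: 2 lower, where 12.5% of all genes were, and 1 higher, where 17.7% were. The same 3 had groups without overlap, as did 34.6% of all genes, 17.0% higher and 17.6% lower. Folds are 2 to the power of the log2 difference. Mpo was 4.64-fold lower: AML samples averaged 26798 ± 17357 normalized counts (SD, n = 7) and lineage-negative samples 102921 ± 22451 (SD, n = 4). Its log2 difference was −2.21 (SE 0.44, limma adjusted p = 0.000345), with 7 of 7 AML libraries below. Ctsg was 3.21-fold lower, with a log2 difference of −1.68 (SE 0.40, limma adjusted p = 0.00167) and no AML library within the lineage-negative range. Fcnb was 23.2-fold higher, with 1702 ± 566 (SD, n = 7) against 79.2 ± 47.9 normalized counts (SD, n = 4), a log2 difference of 4.53 (SE 0.33, limma adjusted p = 1.75e-09). Here 7 of 7 AML libraries lay above.

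Elane, Prtn3 and Ms4a3 were near the threshold in this comparison. Their log2 differences were −1.16 (SE 0.47), −0.93 (SE 0.38) and −0.94 (SE 0.42), with limma adjusted p-values of 0.0514, 0.0517 and 0.0786, and their AML libraries overlapped the lineage-negative ones. The number of members called was 3 in the full data. Without AML replicate 1, 4 or 5 it was 5, as Elane and Prtn3 passed, and without AML replicate 6 it was 6, as Ms4a3 passed too. Without lineage-negative replicate 4 Elane passed, at −1.36. Without AML replicates 5 and 6 together, the libraries with the fewest genes at 0, all 6 passed, with 5 lower and 1 higher. Among the AML libraries, replicate 5 also had the highest Mpo and Elane, and replicate 6 the highest Ctsg and Ms4a3. Leaving them out thus lowers the AML means of these genes, which by itself favours lower calls. The share of all genes called with libraries left out was not counted, so these numbers of members cannot be read against it. TMM scaling gave Elane a call, at −1.13 (limma adjusted p = 0.0494).

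**Figure D2:**
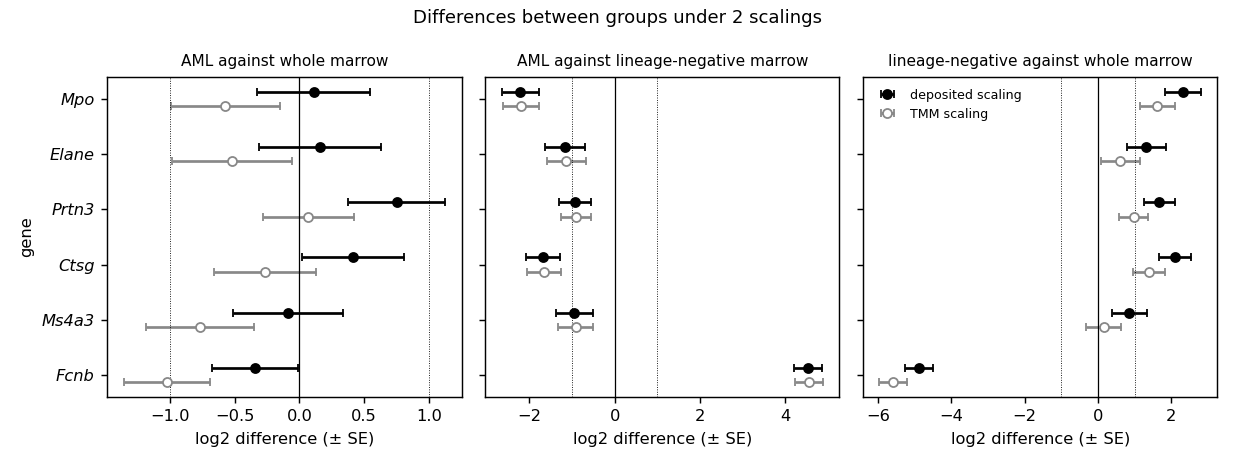
Log2 differences (± SE from the limma fit) of the 6 genes in the 3 comparisons, under the deposited scaling (filled) and TMM scaling (open); dotted lines mark 2-fold. The values of AML against lineage-negative marrow stay put, while those against whole marrow move down by the scaling.

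The normal groups show where these transcripts sit in healthy marrow. Lineage-negative marrow had more Mpo, Ctsg, Prtn3 and Elane than whole marrow, by 5.00-fold, 4.28-fold, 3.19-fold and 2.49-fold, and Fcnb was 29.4-fold lower. Of the 6 genes 5 were called, as were 50.3% of all genes: 4 higher, where 33.1% of all genes were, and 1 lower, where 17.2% were. Log2 differences were 2.32 (SE 0.49, limma adjusted p = 0.000424) for Mpo, 2.10 (SE 0.45, limma adjusted p = 0.000441) for Ctsg and 1.68 (SE 0.43, limma adjusted p = 0.00198) for Prtn3. That of Fcnb was −4.88 (SE 0.37, limma adjusted p = 1.78e-08). Elane, at 1.32 (SE 0.53, limma adjusted p = 0.0369), lost its call without whole marrow replicate 1, at 0.96, or replicate 4, at 1.35, and without lineage-negative replicate 1, at 1.07, or replicate 2, at 1.28, and with robust empirical Bayes variances (adjusted p in limma 0.0807). Ms4a3 was not called, at 0.86 (SE 0.48, limma adjusted p = 0.126) and 0.15 after TMM scaling, although its groups did not overlap. Under the deposited scaling none of the 6 members overlapped here, 5 higher and 1 lower in lineage-negative marrow. Of all genes 57.7% did not overlap, 41.1% higher and 16.6% lower. As a share of the library the groups of Ms4a3 did overlap, with 0.0108% in lineage-negative replicate 1 and 0.0125% in whole marrow replicate 3. Overlap after TMM scaling was not counted. After TMM scaling, with 35.7% of all genes called, 10.8% higher and 24.8% lower, Mpo, at 1.62, and Ctsg, at 1.39, kept their calls beside Fcnb, at −5.58, while Prtn3, at 0.97, and Elane, at 0.61, did not. The comparisons share groups of samples, so their values are set side by side and not counted as separate evidence.

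A ratio of 2 genes in the same library does not depend on the scaling. Each member was therefore also expressed relative to Mpo, and the log2 ratios were compared by exact two-sided permutation tests over the samples, 15 tests in all, whose p-values were not adjusted. The tests had 330 splits and a smallest p of 0.00303 in comparisons with AML, and 70 splits and a smallest p of 0.0286 between the normal groups. Relative to Mpo, AML had more of all 5 other members than lineage-negative marrow did. Mpo itself was lower in AML, while the median log2 difference over all genes was 0.02. A gene of unchanged level would thus also have a higher ratio. The share of all genes with higher ratios was not counted, so these ratios do not set the members apart from other genes. For Elane the ratio was 1.05 higher on the log2 scale (SE 0.19, exact p = 0.00303), for Prtn3 1.29 (SE 0.19, exact p = 0.00303), for Ms4a3 1.27 (SE 0.27, exact p = 0.00303) and for Fcnb 6.75 (SE 0.54, exact p = 0.00303), each without overlap. For Ctsg it was 0.53 (SE 0.17, exact p = 0.0303), with overlap, a call lost without AML replicate 4 or 7 or without lineage-negative replicate 2, 3 or 4. Elane was thus present at 19.3% to 27.9% of the Mpo count in AML, at 17.0% to 26.01% in whole marrow and at 9.10% to 15.4% in lineage-negative marrow.

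AML and whole marrow were closer in these proportions. The log2 ratio to Mpo differed by 0.05 (SE 0.15, exact p = 0.758) for Elane, 0.30 (SE 0.16, exact p = 0.167) for Ctsg, −0.20 (SE 0.23, exact p = 0.485) for Ms4a3 and −0.45 (SE 0.33, exact p = 0.282) for Fcnb. For Prtn3 it was 0.64 higher in AML (SE 0.21, exact p = 0.0333), a call lost without AML replicate 1, 2 or 7 or without any 1 of the whole marrow libraries. Prtn3 stood at 18.9% to 47.8% of the Mpo count in AML and at 17.0% to 24.1% in whole marrow. Between the normal groups the ratios of Elane, Prtn3, Ms4a3 and Fcnb were lower in lineage-negative marrow by −1.01, −0.65, −1.47 and −7.20 on the log2 scale, each at an exact p of 0.0286. Mpo itself was higher in lineage-negative marrow, which lowers every such ratio. The call of Elane was lost without any 1 of the whole marrow libraries, and that of Prtn3 without lineage-negative replicate 2, 3 or 4. The groups of both ratios did not overlap, and leaving out a library cannot make them overlap. These losses thus come from the few splits of the test and do not show dependence on a library. That of Ctsg differed by −0.23 (exact p = 0.171). A limma fit of the ratios of all genes, as first planned, gave 0, 4 and 2 calls in AML against whole, AML against lineage-negative and lineage-negative against whole marrow, where the exact tests gave 1, 5 and 4.

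**Figure D3:**
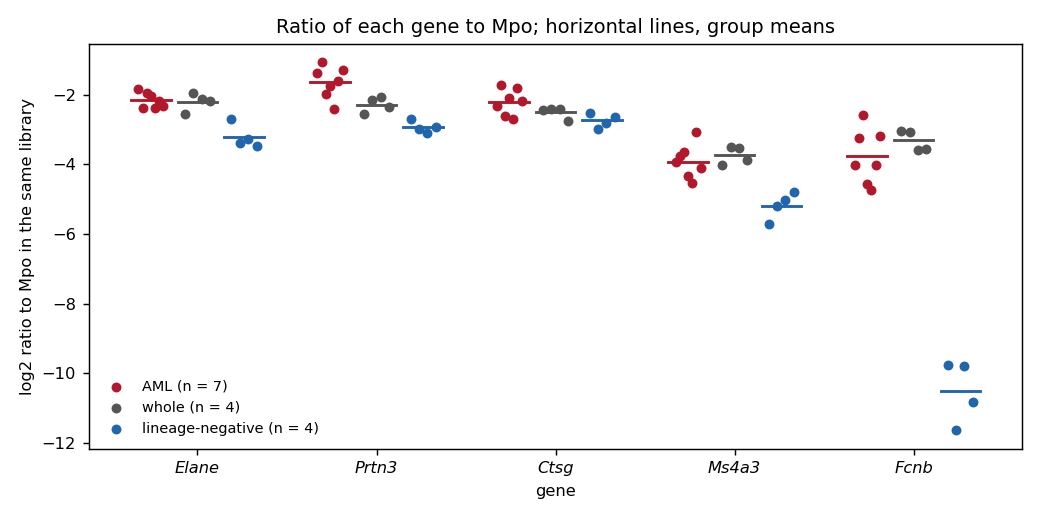
Log2 ratio of 5 genes to Mpo in the same library, by group; points are libraries and lines are group means. AML lies above lineage-negative marrow without overlap for Elane, Prtn3, Ms4a3 and Fcnb, and overlaps whole marrow for all 5 genes, with the mean of Prtn3 0.64 above it.

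The AML libraries differed widely in these genes. Mpo, Elane, Prtn3, Ctsg and Ms4a3 had their lowest 3 values in AML replicates 2, 3 and 7, while Fcnb was highest in replicate 3. From the lowest to the highest AML library the level rose 7.66-fold for Ms4a3, 6.63-fold for Mpo, 6.41-fold for Elane, 4.82-fold for Ctsg, 3.602-fold for Prtn3 and 2.47-fold for Fcnb. The SD of log2 values over the 7 AML libraries was 1.12 for Elane, 1.05 for Mpo, 1.04 for Ms4a3, 0.98 for Ctsg, 0.82 for Prtn3 and 0.54 for Fcnb. The median was 0.28 over the 11270 genes that averaged 100 normalized counts or more, and 94.2% to 97.2% of these genes had a smaller SD than the first 5 members, 86.1% for Fcnb. In whole marrow the SDs of the members were 0.42 to 0.75 against a median of 0.47, and in lineage-negative marrow 0.23 to 0.90 against 0.26. In whole marrow 96.8%, 95.7% and 96.6% of genes had a smaller SD than Elane, Prtn3 and Ms4a3, and 35.1% to 66.1% than the other 3 members. In lineage-negative marrow the share was 96.6% for Fcnb and 43.2% to 90.0% for the other 5, so a high rank in spread was not seen in AML alone.

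AML replicate 7 was the lowest for all 6 genes under the deposited scaling. As a share of its library replicate 2 was lower than replicate 7 for Mpo (0.0330% against 0.0365%), Elane (0.00641% against 0.00731%) and Fcnb (0.00351% against 0.00404%), and replicate 3 was the lowest for Prtn3 (0.0137%). Replicate 2 was among the lowest 3 for all 6, and replicate 3 for 5, the exception being Fcnb, which was highest there at 2343. Replicate 5 was among the highest 3 for all 6 and had the highest Mpo and Elane, with 56934 and 11002 normalized counts. Replicate 6 had the highest Ms4a3 and Ctsg, with 3793 and 9141, and replicate 1 the highest Prtn3, with 12658. Summed over the 6 genes, AML replicates 1 to 7 held 0.225%, 0.0710%, 0.103%, 0.211%, 0.378%, 0.258% and 0.0730% of all normalized counts of their library. Whole marrow held 0.204% to 0.263% and lineage-negative marrow 0.615% to 0.857%. The AML shares thus reached both below and above those of whole marrow and stayed below those of lineage-negative marrow.

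**Figure D4:**
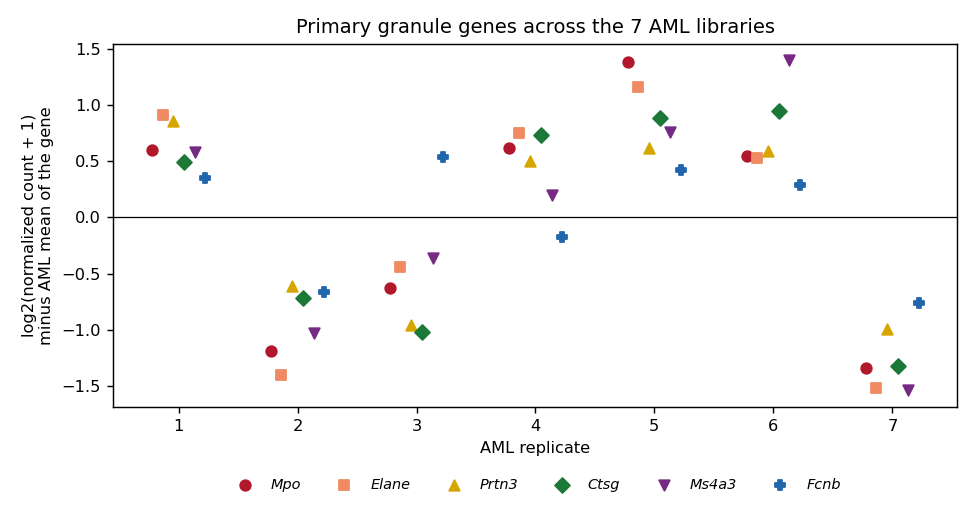
Log2 level of each gene in the 7 AML libraries, minus the mean of that gene over AML; replicate numbers have no order. Replicates 2 and 7 lie below 0 for all 6 genes, and replicate 3 for all but Fcnb.

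Markers of other cells varied between the AML libraries too, here in summed normalized counts of replicates 1 to 7. The 5 B cell markers summed to 443, 2294, 5626, 1517, 575, 484 and 876. The 7 erythroid markers summed to 390, 2163, 31960, 16772, 1721, 3908 and 9329. The B cell and erythroid sums were both highest in replicate 3. The 5 T and NK cell markers summed to 554, 1101, 1242, 424, 336, 1905 and 376, highest in replicate 6. The 5 stem and progenitor markers summed to 2909, 2598, 2870, 4562, 6653, 1713 and 3243. The 6 mature neutrophil markers summed to 819767, 250937, 389663, 190548, 361662, 541756 and 358018. The stem and progenitor sum was highest in replicate 5, as were Mpo and Elane, and lowest in replicate 6, where Ctsg and Ms4a3 were highest. The 4 megakaryocyte markers summed to 178, 94.5, 141, 308, 466, 348 and 60.4. This sum was lowest in replicates 7, 2 and 3 and highest in replicate 5, as was the sum of the members. A large part of the megakaryocyte sum was Itga2b, 1 of the 4 markers, which averaged 134.6 normalized counts in AML. The 6 markers of eosinophils, basophils and mast cells summed to 972, 2965, 583, 1926, 3234, 1697 and 669, highest in replicate 5. The 6 monocyte and macrophage markers summed to 87856, 88971, 53177, 53871, 82562, 63824 and 73461, highest in replicate 2. The part of these cells in the levels of the primary granule genes was not tested.

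Likeness between genes was measured as the root mean square difference of their centred log2 values, 0 for genes that move in parallel, which does not depend on the scaling. Over the 7 AML libraries Mpo and Elane were closest among the members, at 0.20, then Prtn3 and Ctsg at 0.27 and Mpo and Ctsg at 0.34. Fcnb was 0.66 to 0.78 from each of the others and 0.33 to 0.99 from the 8 secondary and tertiary granule genes. Camp, for the peptide cathelicidin, was the nearest of these at 0.33, and Mmp8 the farthest. Of the other primary granule genes Cd63 was 0.29 and Prss57 0.33 from Fcnb. Over all 15 libraries the other 5 members were 0.34 to 0.71 from each other, and Fcnb was 2.56 to 3.13 from them and 1.09 to 1.59 from the 8 secondary and tertiary granule genes.

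Among 10424 other genes that averaged 100 normalized counts or more, the nearest to Mpo over the 15 libraries were Dio2 (0.40), Ak4 (0.42) and Gmpr (0.45). Impdh1 was nearest to Ctsg (0.36) and to Elane (0.46). Prss57, which encodes a further neutrophil serine protease, was nearest to Ms4a3 (0.33) and the next nearest to Elane (0.48). For Prtn3 the nearest was Mfsd13a (0.36), and Gfi1 was among the 3 nearest to Ms4a3 (0.45). Fcnb was nearest to Cd33 (0.51), whose mean normalized count was 3753 for AML, 3326 for whole marrow and 134 for lineage-negative marrow. Over the 7 AML libraries alone Itga2b was nearest to Ctsg (0.25) and Mpo (0.37), Dio2 to Ms4a3 (0.27), Igha to Elane (0.39), Egln3 to Prtn3 (0.33) and Mogat2 to Fcnb (0.12).

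Genes of the later granules were set beside the primary ones. All 8 secondary and tertiary granule genes listed (Ltf, Camp, Ngp, Lcn2, Mmp8, Cd177, Olfm4 and Mmp9) were called higher in AML than in lineage-negative marrow, with a median log2 difference of 7.41, against −1.05 for the 6 primary granule genes and 0.02 for all genes. None of the 8 was called in AML against whole marrow, where their median was 0.07, against 0.13 for the primary granule genes and 0.67 for all genes. After TMM scaling these medians were −0.61, −0.55 and 0.01. In lineage-negative against whole marrow all 8 were called lower, with a median of −7.05, or −7.75 after TMM scaling. Ltf, for lactoferrin, averaged 129397 ± 52891 normalized counts (SD, n = 7) in AML samples, 117478 ± 32528 (SD, n = 4) in whole and 1688 ± 2180 (SD, n = 4) in lineage-negative samples. Its log2 difference was 7.44 (SE 0.70, limma adjusted p = 4.66e-08) in AML against lineage-negative marrow. Fcnb, with 23.2-fold more in AML, shared the direction of these genes but not their size.

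Of 9 other primary granule genes, 8 were tested and Bpi was too low. Against lineage-negative marrow 2 were called higher and 1 lower in AML, and against whole marrow 4 were called higher, 2 of them also after TMM scaling, by which Cd63, at −1.10 (SE 0.24), was called lower. Lyz2, the lysozyme gene, which monocytes and macrophages share, differed most from the members other than Fcnb, at 2.97 to 3.51 in the likeness measure over the 15 libraries, against 0.83 from Fcnb. It averaged 211607 ± 61364 normalized counts (SD, n = 7) in AML samples, 104216 ± 41340 (SD, n = 4) in whole and 3833 ± 1609 (SD, n = 4) in lineage-negative samples. Its log2 difference was 5.82 in AML against lineage-negative marrow (SE 0.33, limma adjusted p = 8.22e-11). The summed level of 6 monocyte and macrophage markers was 53177 to 88971 normalized counts in AML, 11783 to 26062 in whole marrow and 9778 to 16235 in lineage-negative marrow, and its part in Lyz2 was not tested. Cst7, for the protease inhibitor cystatin F, was lower in AML than in lineage-negative marrow, at −1.09 (SE 0.27, limma adjusted p = 0.00285). Prss57 differed by −0.93 (SE 0.28, limma adjusted p = 0.0104) and missed the 2-fold threshold.

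Genes that process and store granule proteins were mixed. Of 8 tested, 2 were called higher and 1 lower in AML against lineage-negative marrow, and 3 higher in AML against whole marrow, of which Ctsc alone remained after TMM scaling. Ctsc encodes dipeptidyl peptidase I, the cathepsin that activates elastase, proteinase 3 and cathepsin G. It averaged 8643 ± 3836 normalized counts (SD, n = 7) in AML samples, 2278 ± 912 (SD, n = 4) in whole and 1311 ± 209.5 (SD, n = 4) in lineage-negative samples. Its log2 difference was 2.60 against lineage-negative marrow (SE 0.32, limma adjusted p = 1.57e-06) and 1.90 against whole marrow (SE 0.32, limma adjusted p = 6.42e-05), 1.22 after TMM scaling. Ctsc was thus higher in AML than in both normal groups, while the protease genes it serves were not called higher than in either. Calr, for the chaperone calreticulin that assists the folding of myeloperoxidase, followed Mpo in direction, at −1.49 against lineage-negative marrow (SE 0.23, limma adjusted p = 2.51e-05). Srgn, for the proteoglycan serglycin on which granule proteins are stored, was not called in any of the 3 comparisons.

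Of 7 inhibitor genes 3 were tested. Serpinb1a, whose product inhibits all 3 granule proteases, and Slpi, for an inhibitor of elastase and cathepsin G, were called higher in AML than in lineage-negative marrow, at 1.06 (SE 0.29, limma adjusted p = 0.00541) and 1.86 (SE 0.25, limma adjusted p = 6.27e-06). Neither was called against whole marrow. Serpina3n averaged 11.97 ± 9.67 normalized counts (SD, n = 7) in AML samples and 37.4 ± 19.8 (SD, n = 4) in whole marrow samples. It was lower in AML, with a log2 difference of −1.73 (SE 0.65, limma adjusted p = 0.0255), or −2.37 after TMM scaling.

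Of the 10 transcription factors, 5 were called higher and 1 lower in AML against lineage-negative marrow. Cebpe, a factor of the switch to secondary granules, was at 2.38 (SE 0.27, limma adjusted p = 5.01e-07), and Spi1, which encodes PU.1, at 1.83. Myb, a factor of progenitors, was lower at −2.47 (SE 0.25, limma adjusted p = 1.75e-07), averaging 2700 ± 1131 normalized counts (SD, n = 7) in AML samples and 13998 ± 1511 (SD, n = 4) in lineage-negative samples. Cebpa, Gfi1, Runx1 and Cbfb were not called there, with values of −0.01, −0.43, −0.27 and 0.35. Against whole marrow Cebpa, Spi1, Runx1, Irf8 and Klf4 were called higher in AML, and Cebpa (1.21), Irf8 (1.65) and Klf4 (1.63) also after TMM scaling. Irf8 and Klf4 are factors of the monocyte branch.

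Among 7 receptors of progenitors, Kit and Cd34 were lower in AML than in lineage-negative marrow, at −2.62 and −2.32, like Mpo, and Csf3r, Csf2ra, Csf2rb and Csf1r were higher. Of 9 close relatives and genome neighbours of the members 6 were tested: Epx and Lpo, peroxidase genes related to Mpo, Mcpt8 and Ms4a2, which mark basophils and mast cells, Gzmb, and Fcna. Epx, Mcpt8 and Ms4a2 were called lower in AML than in both normal groups, at −8.05, −2.53 and −2.63 against whole marrow (−8.71, −3.21 and −3.31 after TMM scaling) and −7.57, −5.18 and −5.21 against lineage-negative marrow. Fcna, for ficolin A of macrophages, was called in both comparisons, at −1.90 against whole marrow (−2.58 after TMM scaling) and 2.23 against lineage-negative marrow, the latter in the direction of Fcnb. Lpo had means of 11.9, 5.85 and 45.8 normalized counts in AML, whole and lineage-negative samples. Like Mpo it was called lower in AML than in lineage-negative marrow, at −2.87. Against whole marrow it was not called, at −0.16 (−0.72 after TMM scaling). Olfactory and vomeronasal receptor genes averaged 6.3 to 11.9 normalized counts in the whole marrow libraries, so the level of Lpo there cannot be told from background. Gzmb was not called in either, at 1.17 against whole (0.51 after TMM scaling) and −0.33 against lineage-negative marrow. Cfd, which follows Elane in order on chromosome 10, was too low to be tested, averaging 2.66 ± 2.47 normalized counts (SD, n = 7) in AML samples.

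**Figure D5:**
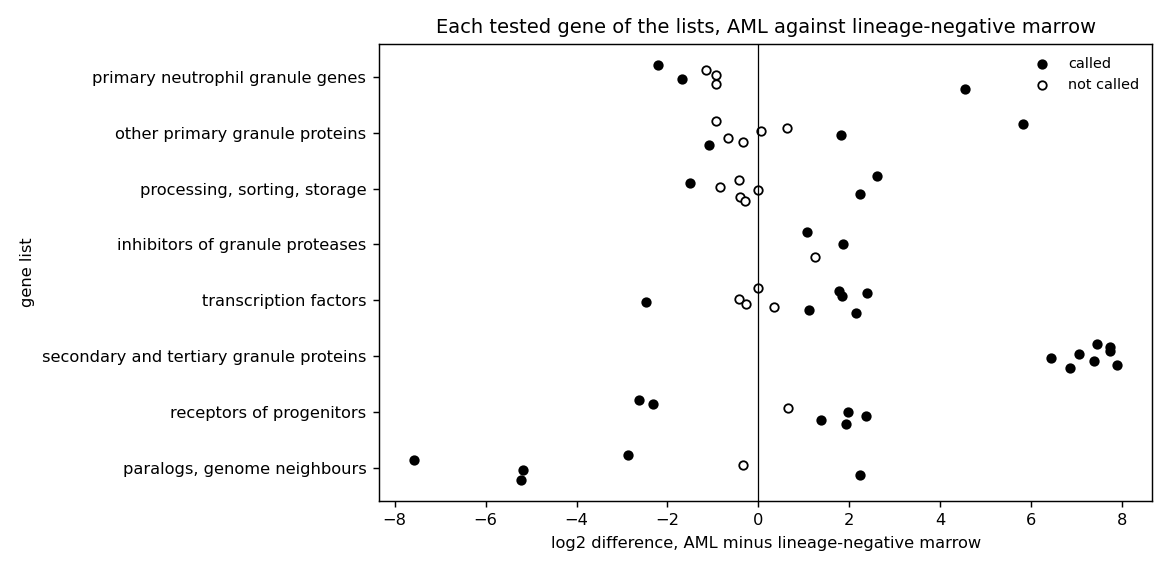
Log2 difference of AML minus lineage-negative marrow for each tested gene of the lists; filled points passed the limma test and at least 2-fold. The 8 secondary and tertiary granule genes lie above 6, while 5 of the 6 primary granule genes lie below 0.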

How the data were processed

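Total RNA of 15 mouse marrow samples was sequenced after TRIzol extraction and TruSeq Stranded Total RNA library preparation, per the labels. The values have the unit signal: the authors deposited estimated reads per gene divided by 1 DESeq2 size factor per library, of the poscounts type, per the name of the table. The submitters' processing notes name STAR, Partek, DESeq2 and mm10, without their roles. The strand setting is not given in the sources used here. Gene starts in the table match GRCm38 for 861 of 38066 shared identifiers, although 37557 have the same length, so positions and exonic lengths were taken by identifier from GENCODE M21 (GRCm38).

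Only 77.5% to 84.3% of low values were whole multiples of 1 read (tolerance 0.02 of a read), so whole reads were not recovered and no count test was run. Depth is the total divided by the value of 1 read. Floors cover counting error only. Groups came from the sample titles and columns from the sample descriptions. No pair of libraries held identical values.

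Genes with at least 10 normalized counts in at least 4 samples (18941) entered 1 limma fit of 3 group means (limma 3.58.1, R 4.3.3, mean-variance trend, two-sided) on log2(normalized count + 1), so fold changes of low genes are understated. P-values were adjusted over all 18941 genes. The procedure was tested on simulated data. The ratios to Mpo were first planned as a limma fit of all genes; since all these ratios share the error of Mpo, that fit overstates its degrees of freedom, and exact permutation tests chosen after seeing it are used instead.

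The members, the 7 pathway lists and the 9 marker lists were chosen with earlier results of these data known. Named genes are the members, the listed genes and the 3 genes nearest to each member over 15 and over 7 samples, among genes that averaged 100 or more and carry no predicted-gene name; some are not described. Protein sequences were not used here. Alternatives were pseudocounts of 0.1 and 5, no filter, a mean of at least 50, TMM, quantile and haemoglobin-free total scaling, fits of 2 groups alone, robust variances, the replicate number as a block, and leaving out each library. Replicate numbers do not pair the samples: deviations of same-numbered libraries had correlations of −0.29 to 0.17 over all genes.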

Additional observations from a re-analysis of the deposited data

How the results depend on the processing

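The number of the 6 members called was 0, 3 and 5 in AML against whole, AML against lineage-negative and lineage-negative against whole marrow. With TMM scaling it was 1 and 3 in the first and last of these, and with quantile scaling or equal totals without haemoglobin genes 1 in AML against whole marrow and 6 in AML against lineage-negative marrow. Leaving out single libraries gave 0 in the first comparison, 3 to 6 in the next and 4 to 5 in the last. Without AML replicates 5 and 6, a choice made after seeing the data, it was 6 in AML against lineage-negative marrow. That choice leaves out the highest AML values of Mpo, Elane, Ctsg and Ms4a3. With TMM scaling 20.8% of all genes were called in AML against whole marrow and 35.7% in lineage-negative against whole marrow. For the other alternatives the share of all genes called was not counted. Their numbers of members called thus do not set the members apart from other genes.

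In AML against whole marrow the sign of uncalled members turned with the scaling. With TMM the log2 differences were −0.57 for Mpo, −0.52 for Elane and −0.27 for Ctsg. With quantile scaling they were −0.59 for Mpo, −0.60 for Elane, −0.021 for Prtn3 and −0.34 for Ctsg, and with equal totals without haemoglobin genes −0.77, −0.72, −0.13 and −0.46. Without AML replicates 5 and 6 Mpo was at −0.28 and Elane at −0.18. Leaving out single libraries gave −0.13 to 0.33 for Mpo, −0.20 to 0.41 for Elane and −0.43 to 0.17 for Ms4a3, and −0.071 to 0.13 for the ratio of Elane to Mpo. The cause was not tested beyond the scaling.

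With a replicate block the counts called were 0, 4 and 5, Mpo was at −0.038 in AML against whole marrow, and a limma fit of the ratios gave 0, 4 and 2 calls. Replicate numbers are shared by name alone, so the samples are not paired. Without the block that fit gave 0 and 2 calls in AML against whole and lineage-negative against whole marrow, where the exact tests gave 1 and 4. Leaving out single libraries, the exact tests gave 0 to 1, 4 to 5 and 3 to 4 calls.

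The directions of Mpo, Ctsg and Fcnb in AML against lineage-negative marrow, and their calls, held under every alternative run. Depth did not limit the members: a floor of 3 reads was at most 4.09 normalized counts, and their lowest value was 37.9.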
